A study of Mus musculus with 22 samples.

Results

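Renal capsule tissue of aged mice was compared with renal capsule tissue of young mice. The capsule is the thin fibrous sheath around the kidney. The libraries were taken by their titles, which name kidney capsule and an age class, and they were 6 of the 22 libraries of the series, 3 from aged and 3 from young animals. Each was a bulk library of whole dissected tissue of untreated mice. The sources used here give neither the ages in months, the strain and the sex, nor whether animals were pooled. Replicates are numbered 1 to 3 in both groups, and nothing states that they came from separate animals, so each p-value reflects the spread of these samples alone, and that spread may be technical.

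The capsule holds fibroblasts and collagen, with macrophages and vessels among them, and it borders perirenal fat on its outer side and kidney cortex on its inner side. B cells carry an antibody made of a heavy chain and a light chain, each assembled from a variable and a constant gene, and plasma cells secrete it in large amounts. B-1 cells are a B cell population of mouse body cavities that secretes natural immunoglobulin M without prior immunization. Brown and beige fat cells burn fatty acids for heat in densely packed mitochondria, as do kidney tubule cells for transport, and both lie next to the capsule.

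Total counts were 43.2, 37.4 and 27.1 M (1e6) in aged replicates 1 to 3, and 20.6, 21.3 and 22.2 M in young replicates 1 to 3. Fibroblast identity genes summed to 18694, 12802 and 15002 counts per 1e6 (CPM) in aged capsules, against 16828, 13494 and 14515 CPM in young capsules, so the labelled tissue had its defining transcripts at a like level in both groups. Tissue from beside the capsule was also read. Adipocyte genes summed to 42188 to 78467 CPM in aged and 32428 to 69156 CPM in young capsules. Proximal tubule genes, all 29 of them detected, summed to 6270, 10976 and 12640 CPM in aged capsules and to 30428, 17584 and 42034 CPM in young capsules, which did not overlap. Adrenal cortex genes summed to 7747 CPM in aged replicate 2 and 737 CPM in young replicate 2, against 416 to 443 CPM in the other 4 libraries. Th, the first enzyme of catecholamine synthesis and a marker of the adrenal medulla, had 790 counts in aged replicate 2, 26 in young replicate 2 and 0 in the other 4 libraries. Y-linked Ddx3y was read in all libraries, at 80.3, 111 and 78.8 CPM in aged and 72.1, 87.1 and 68.3 CPM in young capsules, and Xist had 0 to 3 counts. Malat1, a nuclear RNA, stood at 351 CPM in aged replicate 1 and at 51.4 to 87.8 CPM in the other 5 libraries. In bulk tissue, fewer cells of a type and less RNA per cell cannot be told apart.

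**Figure D1:**
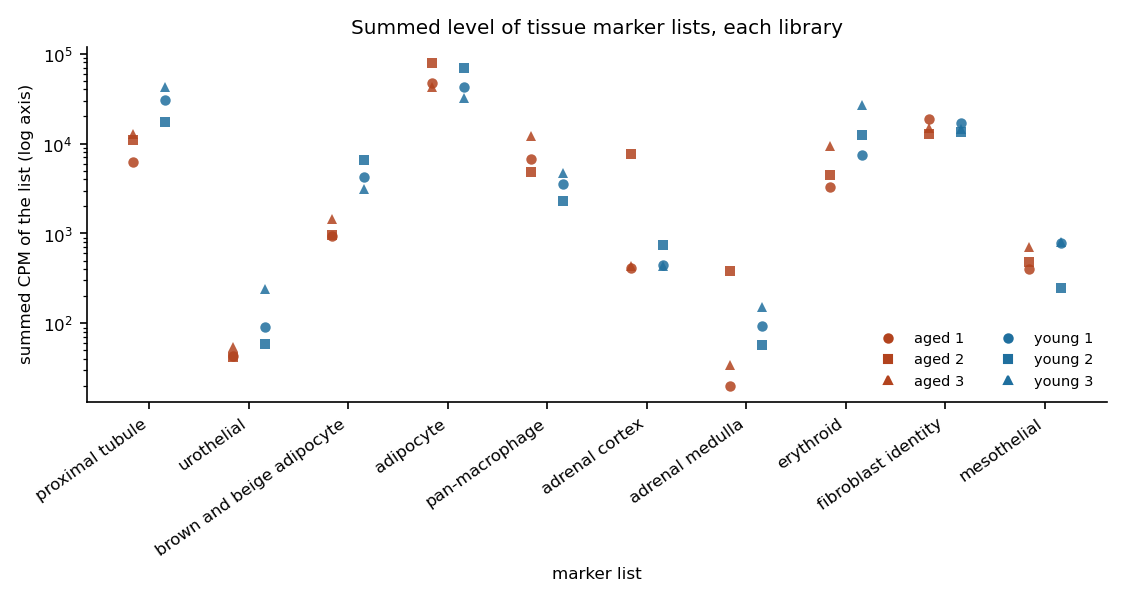
Summed CPM of 10 marker lists in each library, on a log axis, with aged libraries in red left of young libraries in blue and replicates shown by marker shape. Proximal tubule and brown and beige adipocyte genes were lower in all 3 aged libraries than in any young one, adrenal cortex genes stood apart in aged replicate 2, and fibroblast identity genes overlapped.

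Of 16350 genes tested, 39 differed between aged and young capsules at an adjusted p under 0.05 (edgeR's quasi-likelihood test with Benjamini-Hochberg adjustment), which is 0.239% of all genes tested. The 25 genes that rose in aged capsules (0.153%) were mostly genes of antibody-producing cells, and the 14 that fell (0.0856%) included enzymes and carriers of fatty acid, acetate, folate and steroid metabolism. Of the 25, 14 were immunoglobulin genes, 7 were other genes of B cells and plasma cells, and the rest included Gm30211, Slc2a13 and Kif1a. A larger number lay just short of the threshold, since 787 genes had an adjusted p between 0.05 and 0.10 and 3685 (22.5%) had an unadjusted p under 0.05, 1774 of them higher (10.9%) and 1911 lower (11.7%). The groups did not overlap for 4407 genes (27%), with aged capsules higher for 2319 (14.2%) and lower for 2088 (12.8%). The smallest adjusted p was 0.00918.

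The number of genes called rested on single libraries. Without aged replicate 1, or without young replicate 1, 0 genes passed in edgeR, while 2352 and 2828 had an unadjusted p under 0.05. Leaving out aged replicate 3 gave 23 genes in edgeR, and young replicate 3 gave 6. Leaving out aged replicate 2 gave 115, and young replicate 2 gave 387. Without replicate 2 of both groups, the libraries with adrenal transcripts, 176 genes were higher and 311 lower, all 39 among them. With DESeq2, 754 of 16350 genes were called higher and 1122 lower, whereas limma-voom gave 14 higher and 11 lower. Each DESeq2 count of a list below is to be read against these DESeq2 numbers over all genes. Where a gene list below had 0 members past the threshold in edgeR, limma-voom called 0 of it as well. In these counts edgeR stands for the fit without replicate numbers. An edgeR fit with replicate numbers as a block, given at the end, called members of several such lists.

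**Figure D2:**
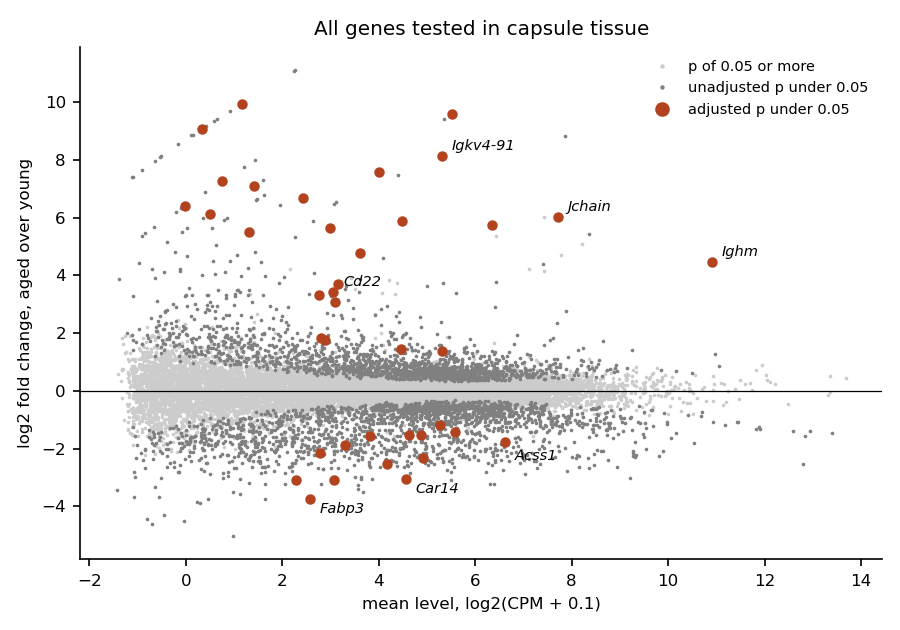
Log2 fold change, aged over young, against mean level as log2(CPM + 0.1) for all 16350 genes tested, with genes at an unadjusted p under 0.05 in dark grey and the 39 genes past the adjusted threshold in red. Most red points above 0 are immunoglobulin and B cell genes, with Ighm furthest to the right.

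Transcripts of immunoglobulin M and of the chain that joins it into polymers rose in aged capsules. Ighm, the constant gene of the M heavy chain (GRCm38 chromosome 12, 113418558 to 113422730, minus strand), stood at 3516, 2974 and 4554 CPM in aged replicates 1 to 3, against 147, 160 and 191 CPM in young replicates 1 to 3. Every aged library lay far above every young one, and Ighm rose with a log2 fold change of 4.47 ± 0.31 (SE; edgeR adjusted p = 0.00918), with adjusted p of 0.0936 and 0.0847 when aged replicate 1 or young replicate 1 was left out. Jchain, which links M and A antibodies into polymers, stood at 264, 279 and 698 CPM in aged capsules and at 2.68, 6.72 and 9.49 CPM in young capsules. It rose by 6.04 ± 0.64 on the log2 scale (edgeR adjusted p = 0.0249), or by 5.43 without aged replicate 3, the highest library. Of the immunoglobulin constant genes, 10 passed the filter on low counts, some of them through aged libraries alone. Among these 10, 3 rose, namely Ighm, Iglc1 and Iglc2, against 0.153% of all genes. Iglc1, a lambda light chain constant gene, had 56.0, 57.2 and 18.7 CPM in aged and 0.390, 1.01 and 0.8503 CPM in young capsules (log2 fold change 5.87 ± 0.56, edgeR adjusted p = 0.0229). Iglc2 had 26.2, 17.0 and 27.5 CPM in aged and 0.244, 0.455 and 1.84 CPM in young capsules, and rose by 4.78 on the log2 scale (edgeR adjusted p = 0.0448), or by 6.08 with young replicate 3 left out. At the read length of 50 bases, 100% of the stretches of Iglc1 and 92.3% of those of Iglc2 were unique to the gene among GENCODE M21 transcripts.

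Shares of the heavy chain classes were compared next. Ighm held 97.0%, 88.6% and 95.3% of all counts on heavy constant genes in aged replicates 1 to 3, and 94.1%, 89.4% and 82.5% in young replicates 1 to 3, shares that overlap. Ighd, the constant gene of the D class that marks naive B cells, held 0.390%, 0.529% and 0.416% of these counts in aged capsules, against 4.33%, 5.12% and 5.91% in young capsules. The Ighd share was thus lower in all 3 aged libraries, while its own level was 15.7, 18.2 and 19.7 CPM of the unscaled total in aged and 6.75, 8.50 and 13.07 CPM in young libraries. Igha, of the A class, held 2.05%, 6.91% and 3.64% in aged and 1.31%, 4.87% and 10.7% in young capsules, which overlap. Counts on the G class genes were concentrated in 1 library. Ighg2b had 6.99, 110 and 8.68 CPM in aged and 0.146, 0.303 and 0.236 CPM in young capsules, so aged replicate 2 held most of it (log2 fold change 7.49 ± 1.38, edgeR adjusted p = 0.0694, and 5.07 without aged replicate 2). Ighg3 had 8.70, 8.29 and 19.0 CPM in aged capsules, and 12 counts in young replicate 2 with 0 in the other 2 young libraries (edgeR adjusted p = 0.0643).

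Igkc, the constant gene of the kappa light chain, had 0 counts in all 6 libraries. Gm30211, a long noncoding RNA gene on chromosome 6 (70719074 to 70740554, plus strand, GRCm38), spans Igkc (70726435 to 70726966) on the same strand. Gm30211 had 104, 114 and 260 CPM in aged and 1.46, 3.74 and 3.78 CPM in young capsules, and rose by 5.73 ± 0.53 on the log2 scale (edgeR adjusted p = 0.0229). How reads that lie in both genes were counted is not given in the sources used here, so the counts of Gm30211 cannot be told apart from those of the kappa constant gene.

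Among variable genes, which encode the antigen-binding ends of antibodies, 67 of 346 passed the filter on low counts. Of the 67, 10 rose and 0 fell, against 0.153% and 0.0856% of all genes. At an unadjusted p under 0.05, 61 were higher and 0 lower, against 10.9% and 11.7% of all genes. A segment can pass the filter through aged libraries alone, so these 67 are not a sample of all segments. Summed over all 346, variable segments held 727, 809 and 1864 CPM in aged capsules, against 6.46, 11.2 and 15.5 CPM in young capsules. Which segments carried this level differed between the aged libraries, in shares not scaled for the transcript length of segments (200 to 501 bases). Heavy variable segments had 7819, 8149 and 8349 counts in aged replicates 1 to 3, and 55, 111 and 73 in young replicates 1 to 3. Ighv12-3 was the leading heavy segment in aged replicates 1 and 2, with 18.4% and 21.5% of them, and had 6.16% in aged replicate 3. Ighv11-2 led in aged replicate 3 with 66.5% (95% Wilson interval 65.4 to 67.5), and had 11.2% and 8.66% in aged replicates 1 and 2. Kappa variable segments had 22482, 21171 and 41786 counts in aged and 75, 126 and 247 in young libraries. Igkv14-126 took 77.3% (76.8 to 77.7) of them in aged replicate 3, against 20.9% and 15.04% in aged replicates 1 and 2. Igkv4-91 took 14.5%, 18.0% and 4.39% in aged replicates 1 to 3, and Igkv3-2 took 31.1%, 20.2% and 1.10%. Aged replicate 3 thus held both the highest Ighv11-2 and the highest Igkv14-126 share. In young replicates 1 to 3, Igkv14-126 took 4%, 19.8% and 13.8% of kappa counts. Igkv4-91 took 0%, 0.794% and 6.48% there, and Igkv3-2 0%, 3.97% and 0.81%. Ighv12-3 took 1.82%, 0% and 12.3% of heavy counts, and Ighv11-2 0%, 6.31% and 0%. Igkv14-126 led in young replicate 2 and Ighv12-3 in young replicate 3. The Igkv14-126 shares of young replicates 2 and 3 lay near those of aged replicates 1 and 2. These young shares rest on 55 to 247 counts.

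The sequences of 2 heavy and 2 kappa segments are shown because Ighv11-2 with Igkv14-126, and Ighv12-3 with Igkv4-91, are pairs known from mouse B-1 cells that bind phosphatidylcholine. Each is the last 300 bases of the coding part, without the start of the signal peptide, from GENCODE M21 transcripts of GRCm38, written 5′ to 3′. Their genes lie on chromosome 12 at 114048241 to 114048812 (Ighv11-2, minus strand) and 114366521 to 114366954 (Ighv12-3, minus strand), and on chromosome 6 at 67896172 to 67896642 (Igkv14-126, plus strand) and 68768555 to 68769103 (Igkv4-91, minus strand). Capitals mark bases that lie in no 50-base stretch, the read length, that is unique to that gene among all M21 transcripts.
Ighv11-2: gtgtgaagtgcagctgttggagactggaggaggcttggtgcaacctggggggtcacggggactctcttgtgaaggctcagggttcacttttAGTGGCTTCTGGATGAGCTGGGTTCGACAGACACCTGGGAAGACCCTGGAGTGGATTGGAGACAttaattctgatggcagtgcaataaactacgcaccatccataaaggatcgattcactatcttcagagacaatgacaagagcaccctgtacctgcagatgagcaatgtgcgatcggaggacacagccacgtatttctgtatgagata
Ighv12-3: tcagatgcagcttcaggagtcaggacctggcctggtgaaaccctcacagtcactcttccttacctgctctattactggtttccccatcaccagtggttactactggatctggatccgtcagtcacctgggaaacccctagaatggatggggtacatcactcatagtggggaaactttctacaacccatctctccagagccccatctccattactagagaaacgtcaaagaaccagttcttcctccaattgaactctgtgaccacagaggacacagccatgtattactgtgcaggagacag
Igkv14-126: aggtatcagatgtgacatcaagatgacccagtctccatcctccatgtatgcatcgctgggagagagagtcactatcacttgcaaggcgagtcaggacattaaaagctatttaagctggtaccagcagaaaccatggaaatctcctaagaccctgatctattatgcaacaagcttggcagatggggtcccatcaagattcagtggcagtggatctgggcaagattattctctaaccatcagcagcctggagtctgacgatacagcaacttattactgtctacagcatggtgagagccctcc
Igkv4-91: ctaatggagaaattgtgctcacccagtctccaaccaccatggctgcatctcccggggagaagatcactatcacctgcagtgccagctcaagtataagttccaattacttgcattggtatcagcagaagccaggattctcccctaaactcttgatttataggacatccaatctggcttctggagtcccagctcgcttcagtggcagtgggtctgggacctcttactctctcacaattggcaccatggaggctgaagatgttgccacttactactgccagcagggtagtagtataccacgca
Of all 50-base stretches of the whole transcript, 100% were unique to the gene in Ighv12-3 and Igkv14-126, 94.8% in Igkv4-91 and 61.4% in Ighv11-2, against a median of 82.8% over 348 variable segments. A read over any of the 64 capital bases of Ighv11-2, positions 92 to 155 from the first base shown, could come from another gene. Of its 412 stretches 253 were unique, and some of the others lie wholly on lowercase bases. The count of Ighv11-2 is therefore uncertain beyond the capital bases.

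By level, Igkv4-91 had 67.9, 99.7 and 68.3 CPM in aged and 0, 0.0505 and 0.756 CPM in young capsules, and rose by 8.14 ± 0.76 on the log2 scale (edgeR adjusted p = 0.0229), or by 11.43 without young replicate 3. Ighv12-3 had 30.0, 45.7 and 19.2 CPM in aged and 0.0488, 0 and 0.425 CPM in young capsules, and rose by 7.57 ± 0.78 (edgeR adjusted p = 0.0249), or by 10.12 without young replicate 3. Both were high in all 3 aged libraries, with no overlap. Igkv14-126 had 97.9, 83.3 and 1203 CPM in aged and 0.146, 1.26 and 1.61 CPM in young capsules, and Ighv11-2 had 18.2, 18.5 and 207 CPM in aged and 0, 0.354 and 0 CPM in young capsules. For these, aged replicate 3 lay far above the other aged libraries, and neither passed (edgeR adjusted p = 0.0611 for each). Igkv3-2 had 146, 112 and 17.2 CPM in aged and 0, 0.253 and 0.0945 CPM in young capsules, with aged replicate 3 the lowest aged library, and rose by 9.60 ± 1.10 (edgeR adjusted p = 0.028), or by 10.76 without young replicate 2. Igkv12-44 and Igkv17-127 had 0 counts in all young libraries and 458 and 276 counts over the aged libraries. Against a floor of 3 counts over the young group, they were at least 94.3-fold and 52.3-fold higher in aged capsules. Without aged replicate 1 or young replicate 1, the adjusted p of the 14 called immunoglobulin genes ran from 0.0936 to 0.184 and from 0.0847 to 0.218 (edgeR), and 5 of the 14 passed without aged replicate 3 and 5 without young replicate 3.

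**Figure D3:**
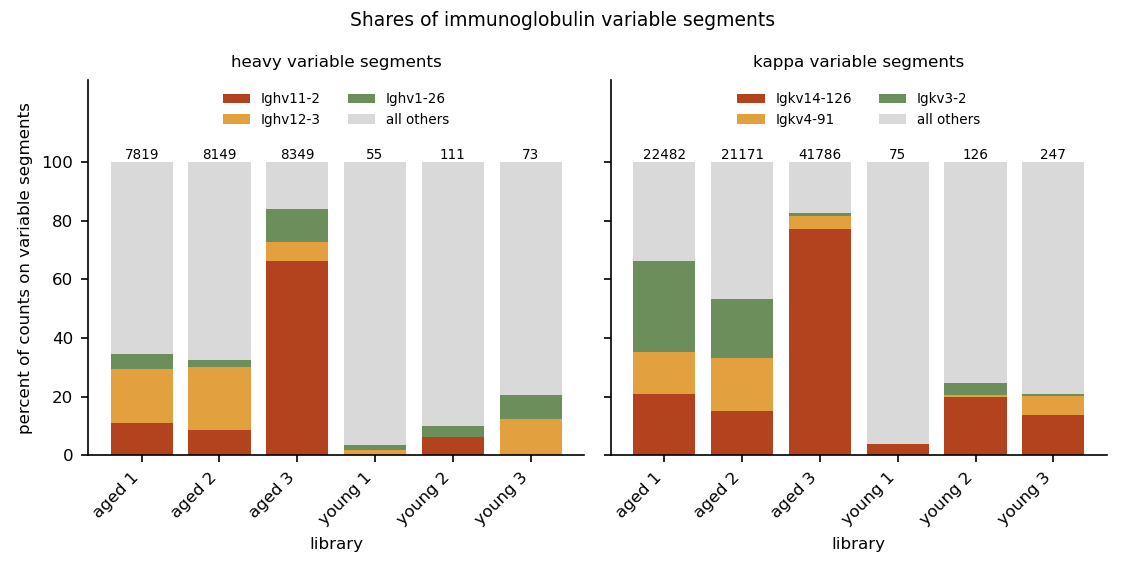
Percent of counts on heavy (left) and kappa (right) variable segments held by 3 segments each and by all others, in each library, with the total count above each bar. In aged replicate 3, Ighv11-2 held 66.5% of heavy and Igkv14-126 held 77.3% of kappa counts, while the young bars rest on 55 to 247 counts.

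Effective numbers of segments, the inverse of the summed squared shares, measure how evenly counts were spread. For heavy segments they were 14.5, 13.8 and 2.18 in aged replicates 1 to 3, and 10.1, 3.54 and 10.4 in young replicates 1 to 3. For kappa segments they were 6.003, 9.30 and 1.65 in aged and 4.33, 10.4 and 10.3 in young libraries. The 2 groups overlapped in both, and the young values rest on few counts. Reads without molecular identifiers are not independent molecules, so the intervals cover counting error only.

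Outside the immunoglobulin loci, 7 genes of B cells and plasma cells rose, Jchain among them. Of 15 B cell genes, all tested, 2 rose, against 0.153% of all genes. At an unadjusted p under 0.05, 13 were higher and 0 lower, against 10.9% and 11.7% of all genes. For 13 the groups did not overlap with aged capsules higher, against 14.2% of all genes. The median log2 fold change of the 15 was 1.38, against 0.03 over all genes. Cd22, an inhibitory co-receptor of B cells, had 17.3, 7.29 and 20.6 CPM in aged and 1.46, 1.26 and 1.46 CPM in young capsules (log2 fold change 3.43 ± 0.42, edgeR adjusted p = 0.0339). Cd79a, which passes on the signal of the B cell receptor, had 10.4, 10.1 and 11.7 CPM in aged and 2.44, 3.23 and 3.31 CPM in young capsules (1.84 ± 0.25, edgeR adjusted p = 0.0447). The aged libraries were close to each other for Cd79a, and aged replicate 2 was the lowest for Cd22. Ms4a1, which encodes the B cell surface protein CD20, had 12.9, 14.4 and 29.8 CPM in aged and 3.02, 4.14 and 5.999 CPM in young capsules, without passing (edgeR adjusted p = 0.0711). Ikzf3, a lymphoid transcription factor not on the list, rose, with 12.7, 10.5 and 10.9 CPM in aged and 2.78, 3.08 and 4.11 CPM in young capsules (1.77 ± 0.25, edgeR adjusted p = 0.0483). None of these genes overlapped between the groups.

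More plasma cell genes were higher than lower in aged capsules. Of 14, all tested, 3 rose, against 0.153% of all genes, and the median log2 fold change was 0.65. At an unadjusted p under 0.05, 7 were higher and 2 lower, against 10.9% and 11.7% of all genes. Jchain, Mzb1 and Pou2af1 were the 3 that rose. Mzb1, an endoplasmic reticulum chaperone of antibody secretion, had 11.4, 11.9 and 25.9 CPM in aged and 0.634, 1.01 and 2.08 CPM in young capsules (log2 fold change 3.71 ± 0.53, edgeR adjusted p = 0.0469, and 4.32 without young replicate 3). Pou2af1, a coactivator of immunoglobulin transcription, had 15.2, 12.9 and 16.9 CPM in aged and 0.975, 1.87 and 2.46 CPM in young capsules (3.08 ± 0.36, edgeR adjusted p = 0.028). Prdm1, the transcription factor that drives plasma cell differentiation, had 5.84, 4.52 and 5.55 CPM in aged and 1.95, 1.26 and 2.17 CPM in young capsules and did not pass (edgeR adjusted p = 0.0805). Bhlha15, a transcription factor of secretory cells that was not on the list, rose, with 192 counts over the aged libraries and 1 over the young ones (edgeR adjusted p = 0.045). With aged replicate 1, young replicate 1 or young replicate 3 left out, 0 of the 7 called B cell and plasma cell genes passed in edgeR, at adjusted p of 0.106 to 0.184, 0.123 to 0.218 and 0.051 to 0.092. With aged replicate 3 left out, 1 did.

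**Figure D4:**
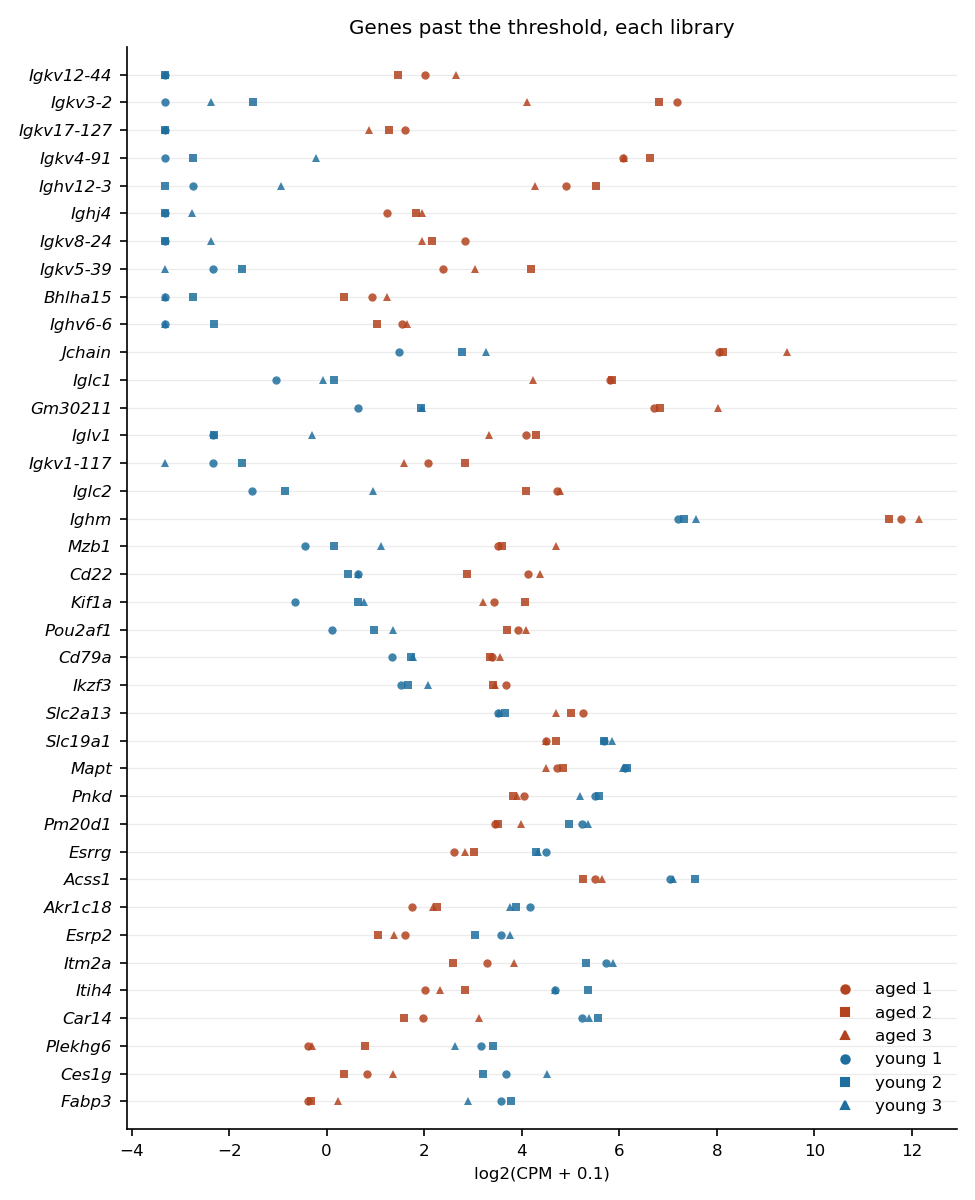
Level of 38 of the 39 called genes in each library, as log2(CPM + 0.1), ordered by log2 fold change, with aged libraries in red and young libraries in blue and replicates by marker shape. No gene shown has overlap between the groups, and points at the far left are libraries with 0 counts.

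Most T cell genes stood above their young levels in aged capsules, though 0 of 25 tested T cell genes passed the adjusted threshold in edgeR, against 14 called higher by DESeq2. At an unadjusted p under 0.05, 19 of the 25 were higher and 0 lower, against 10.9% and 11.7% of all genes. The groups did not overlap for 19 with aged capsules higher, against 14.2% of all genes, and the median log2 fold change was 1.33. Cd3e, a subunit of the T cell receptor complex, had 9.68, 7.55 and 6.45 CPM in aged and 2.19, 2.17 and 2.55 CPM in young capsules (log2 fold change 1.77 ± 0.28, edgeR adjusted p = 0.0555). Cd8b1, which encodes part of the CD8 co-receptor of cytotoxic T cells, had 7.59, 4.91 and 8.35 CPM in aged and 1.66, 1.01 and 1.32 CPM in young capsules (2.38 ± 0.35, edgeR adjusted p = 0.0505). Both were higher in every aged library. Of 17 NK and cytotoxic genes, 0 passed in edgeR and 5 in DESeq2, and 8 were higher at an unadjusted p under 0.05. Gzmk, a granzyme of effector memory T cells, had 2.09, 6.06 and 3.35 CPM in aged and 0.244, 0.202 and 0.614 CPM in young capsules (3.42 ± 0.61, edgeR adjusted p = 0.0666, and 4.10 without young replicate 3). Ccl5, a chemokine made by such cells, had 21.0, 36.2 and 32.2 CPM in aged and 8.87, 4.70 and 10.5 CPM in young capsules (edgeR adjusted p = 0.0666). Of 9 tested genes that organise lymphoid tissue, 0 passed in edgeR and 2 in DESeq2, and 3 were higher at an unadjusted p under 0.05. Cxcr5, the receptor that guides B cells to follicles, had 6.40, 6.82 and 6.89 CPM in aged and 0.488, 1.16 and 1.70 CPM in young capsules (2.58 ± 0.44, edgeR adjusted p = 0.0636). Its ligand Cxcl13 had 20.9, 119 and 57.5 CPM in aged and 13.02, 11.0 and 13.9 CPM in young capsules (edgeR adjusted p = 0.0875), with aged replicate 2 the highest.

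Pan-macrophage genes stood higher in aged capsules by amounts that varied between aged libraries. Of 16 pan-macrophage genes, 0 passed in edgeR and 5 in DESeq2, and the median log2 fold change was 0.91. At an unadjusted p under 0.05, 9 were higher, against 10.9% of all genes. The list sum was 6726, 4791 and 12242 CPM in aged against 3554, 2323 and 4711 CPM in young capsules. On this unscaled total the lowest aged sum lay just above the highest young one. The scaling used for gene levels would turn that order, with factors of 1.025 for aged replicate 2 and 0.955 for young replicate 3. Mertk, a receptor for the uptake of dying cells, had 68.8, 40.4 and 48.5 CPM in aged and 30.8, 24.5 and 28.9 CPM in young capsules, without overlap (log2 fold change 0.91 ± 0.22, edgeR adjusted p = 0.0929). Of 12 genes of tissue-resident macrophages, 0 passed in edgeR and 2 in DESeq2. At an unadjusted p under 0.05, 2 were higher, not far from the 10.9% of all genes. They were Mrc1 and Stab1, both scavenging receptors. Lyve1, a hyaluronan receptor of resident macrophages and lymphatic vessels, had 104, 160 and 158 CPM in aged and 109, 75.1 and 154 CPM in young capsules, which overlap (0.32 ± 0.30, edgeR adjusted p = 0.567).

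Several genes of lipid-associated macrophages varied strongly between aged libraries, while their list sum, at 16016, 14905 and 16033 CPM in aged and 10176, 13216 and 9431 CPM in young capsules, was steady within the aged group. Gpnmb, a membrane glycoprotein of lipid-laden macrophages, had 759, 44.2 and 1117 CPM in aged and 13.9, 10.01 and 19.9 CPM in young capsules (log2 fold change 5.45 ± 1.05, edgeR adjusted p = 0.0711, and 4.78 without aged replicate 3). Trem2, a lipid-sensing receptor, had 82.0, 12.7 and 170 CPM in aged and 8.24, 5.91 and 11.1 CPM in young capsules (3.39 ± 0.80, edgeR adjusted p = 0.0897, and 2.49 without aged replicate 3). Mmp12, the macrophage elastase, had 433, 7.89 and 527 CPM in aged and 12.9, 6.42 and 26.8 CPM in young capsules (4.39 ± 1.26, edgeR adjusted p = 0.111, and 5.08 without young replicate 3). For all 3 genes aged replicate 2 was far below the other aged libraries, and for Mmp12 it lay inside the young range. Most of the list sum came from genes other than these 3. Aged replicate 2 is also the library with the adrenal transcripts. Of the 14 genes on the list, 0 passed in edgeR, against 5 higher and 1 lower in DESeq2, and the median was 0.41. At an unadjusted p under 0.05, 6 were higher and 1 lower, against 10.9% and 11.7% of all genes. Lysosomal genes followed the same libraries, with sums of 17852, 13297 and 24115 CPM in aged and 12828, 11610 and 13238 CPM in young capsules. Ctsd, an aspartic protease of lysosomes, had 468, 354 and 709 CPM in aged and 227, 291 and 217 CPM in young capsules (1.06 ± 0.30, edgeR adjusted p = 0.109).

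Most inflammatory cytokine and NF-kB genes stood higher in aged capsules, with 15 of 25 higher and 0 lower at an unadjusted p under 0.05 and a median log2 fold change of 0.87, though 0 passed in edgeR, against 13 in DESeq2. Over all genes, 10.9% were higher and 11.7% lower at an unadjusted p under 0.05. Tnfaip3, which restrains NF-kB, had 27.6, 21.8 and 29.1 CPM in aged and 9.95, 10.6 and 13.1 CPM in young capsules (1.22 ± 0.21, edgeR adjusted p = 0.0636). Vcam1, an adhesion molecule for leukocytes, had 98.3, 60.6 and 127 CPM in aged and 36.2, 32.9 and 40.3 CPM in young capsules (1.39 ± 0.27, edgeR adjusted p = 0.0711). Neither gene overlapped between the groups. Of 17 MHC class I genes, which present peptides to cytotoxic T cells, 8 were higher and 0 lower at an unadjusted p under 0.05, and 0 passed in edgeR and 7 in DESeq2. Nlrc5, their transcriptional activator, had 64.7, 36.8 and 22.95 CPM in aged and 14.8, 11.0 and 14.7 CPM in young capsules (1.62 ± 0.36, edgeR adjusted p = 0.0852). H2-Q6 had 64.6, 49.3 and 67.2 CPM in aged and 28.8, 17.6 and 23.4 CPM in young capsules (edgeR adjusted p = 0.0591), in a family with near-identical members. Of 11 MHC class II genes, 2 were higher at an unadjusted p under 0.05, Ciita and H2-Eb2, not far from the 10.9% of all genes. In edgeR 0 passed and in DESeq2 1, and the list sum overlapped at 3924, 5246 and 6244 CPM in aged and 4530, 2530 and 5370 CPM in young capsules. Of 20 tested complement genes, 8 were higher and 0 lower at an unadjusted p under 0.05, and 0 passed in edgeR and 5 in DESeq2. C6, a component of the membrane attack complex, had 67.9, 118 and 73.7 CPM in aged and 27.4, 32.0 and 45.3 CPM in young capsules (1.31 ± 0.27, edgeR adjusted p = 0.0813). Of 13 mast cell genes, 3 were higher at an unadjusted p under 0.05, 0 passed in edgeR and 2 in DESeq2, and Cpa3, a mast cell protease, overlapped at 30.7, 46.3 and 69.2 CPM in aged and 29.9, 9.70 and 34.2 CPM in young capsules.

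Fibroblast identity genes had a median log2 fold change close to 0, 2 fibrillar collagens were lower and 7 matrix proteases and inhibitors higher by the unadjusted test, and none of these passed the adjusted threshold in edgeR. Over all genes, 10.9% were higher and 11.7% lower by the unadjusted test. Of 19 fibroblast identity genes, 0 passed in edgeR and 1 in DESeq2, and 1, Pi16, was lower at an unadjusted p under 0.05, with a median log2 fold change of -0.02. Pi16, a marker of adventitial fibroblasts, had 587, 460 and 578 CPM in aged and 1095, 883 and 735 CPM in young capsules (-0.74 ± 0.25, edgeR adjusted p = 0.139). Pdgfra, a receptor found on fibroblasts, overlapped at 536, 382 and 440 CPM in aged and 593, 298 and 445 CPM in young capsules. Of 7 tested fibrillar collagens, 0 passed in edgeR and 1 in DESeq2, and Col1a1 and Col3a1 were lower at an unadjusted p under 0.05. Col3a1 had 1372, 1155 and 1264 CPM in aged and 2399, 1866 and 1963 CPM in young capsules, without overlap (-0.72 ± 0.24, edgeR adjusted p = 0.143). Col1a1 had 701, 500 and 657 CPM in aged and 1128, 754 and 1049 CPM in young capsules, where the lowest young library stood close to the highest aged one (-0.66 ± 0.26, edgeR adjusted p = 0.19). Of 20 matrix proteases and inhibitors, 7 were higher and 0 lower at an unadjusted p under 0.05, and 0 passed in edgeR and 3 in DESeq2. The list includes Mmp12, the macrophage elastase described above, and it shares Mmp3 with the senescence list below. Mmp3, a stromal matrix protease, had 18.1, 8.68 and 28.4 CPM in aged and 1.61, 1.42 and 3.21 CPM in young capsules (3.14 ± 0.51, edgeR adjusted p = 0.0591). Mmp19 had 92.6, 97.5 and 112 CPM in aged and 45.2, 62.5 and 40.3 CPM in young capsules (1.03 ± 0.20, edgeR adjusted p = 0.0727). Both were higher in every aged library.

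Of the blood endothelial, smooth muscle and Wnt pathway lists, 0 genes passed the adjusted threshold in edgeR, while DESeq2 called 1 and 1 higher in the first 2 lists and 2 higher and 2 lower in the Wnt list. Of 18 blood endothelial genes, 4 were higher and 0 lower at an unadjusted p under 0.05, against 10.9% and 11.7% of all genes, with Ehd3, an endocytic ATPase, at 74.1, 55.3 and 38.3 CPM in aged and 21.9, 19.2 and 28.0 CPM in young capsules (log2 fold change 1.28 ± 0.27, edgeR adjusted p = 0.0799). Pecam1, a junction protein of endothelium, overlapped at 235, 130 and 146 CPM in aged and 98.5, 145 and 123 CPM in young capsules. Of 13 smooth muscle genes, 3 were higher and 0 lower at an unadjusted p under 0.05, and Lmod1, an actin nucleator of smooth muscle, had 12.3, 7.29 and 12.8 CPM in aged and 2.97, 2.88 and 3.83 CPM in young capsules (1.74 ± 0.30, edgeR adjusted p = 0.0643). Acta2, the smooth muscle actin, overlapped at 310, 235 and 671 CPM in aged and 316, 175 and 195 CPM in young capsules. Of 28 tested Wnt pathway genes, 2 were higher and 3 lower at an unadjusted p under 0.05, near the shares of all genes. Sfrp5, a secreted Wnt inhibitor of fat tissue, had 226, 202 and 436 CPM in aged and 114, 68.7 and 71.7 CPM in young capsules (1.76 ± 0.36, edgeR adjusted p = 0.0768). Sfrp2, another secreted Wnt modulator, had 38.8, 45.8 and 38.5 CPM in aged and 91.5, 69.9 and 58.6 CPM in young capsules (-0.84 ± 0.20, edgeR adjusted p = 0.0898).

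Senescence-associated genes were tested as a list of 24, of which 0 passed in edgeR and 7 in DESeq2. At an unadjusted p under 0.05, 9 were higher and 0 lower, against 10.9% and 11.7% of all genes. Cdkn2a, whose product p16 arrests the cell cycle, had 3.04, 1.07 and 3.13 CPM in aged and 0.390, 0.202 and 0.661 CPM in young capsules (log2 fold change 2.51 ± 0.62, edgeR adjusted p = 0.0936). Its neighbour Cdkn2b, a related inhibitor, had 14.1, 14.0 and 14.0 CPM in aged and 6.87, 9.55 and 7.32 CPM in young capsules (0.82 ± 0.21, edgeR adjusted p = 0.0991). Cdkn1a, whose product p21 also inhibits cell cycle kinases, overlapped at 77.8, 49.1 and 79.6 CPM in aged and 54.3, 65.6 and 48.5 CPM in young capsules. Mki67, a marker of dividing cells, had 11.3, 8.13 and 10.1 CPM in aged and 5.95, 3.18 and 5.62 CPM in young capsules (0.999 ± 0.30, edgeR adjusted p = 0.118), and of 26 cell division genes 1 was higher at an unadjusted p under 0.05.

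Genes of oxidative fat metabolism were lower in aged capsules. Fabp3, a fatty acid carrier of heart, muscle and brown fat (chromosome 4, 130308595 to 130315463, plus strand), had 0.667, 0.706 and 1.08 CPM in aged and 11.7, 13.6 and 7.37 CPM in young capsules, and fell by 3.75 on the log2 scale (SE 0.37, edgeR adjusted p = 0.0229). Its adjusted p was 0.109 without aged replicate 1 and 0.123 without young replicate 1 (edgeR). It was the member of the brown and beige adipocyte list that passed, with 1 of 18 tested lower, and 14 were lower and 1 higher at an unadjusted p under 0.05, against 11.7% and 10.9% of all genes. The list sum was 938, 974 and 1439 CPM in aged and 4218, 6629 and 3148 CPM in young capsules, without overlap and with young replicate 2 the highest. This sum includes Slc27a2, which is also on the proximal tubule list. Slc27a2 had 156, 111 and 376 CPM in aged and 1178, 487 and 1504 CPM in young capsules, highest in young replicate 3. Gk, another member, had 34.0, 34.1 and 67.1 CPM in aged and 199, 97.4 and 227 CPM in young capsules. Among young libraries, both genes were lowest in replicate 2 and highest in replicate 3. The part of tubule content in the list sum was not tested. Cox7a1 and Cox8b are also on the complex IV list, and Cpt1b is also on the fatty acid oxidation list. Ucp1, the uncoupling protein of thermogenic fat, had 83.1, 95.9 and 111 CPM in aged and 312, 814 and 241 CPM in young capsules (-2.24 ± 0.46, edgeR adjusted p = 0.0768, and -1.55 without young replicate 2). Cox7a1 and Cox8b encode cytochrome oxidase subunits of muscle and brown fat. Cox7a1 had 10.2, 11.7 and 26.8 CPM in aged and 115, 263 and 74.9 CPM in young capsules (-3.22 ± 0.56, edgeR adjusted p = 0.0643, and -2.59 without young replicate 2), and Cox8b had 45.8, 70.6 and 67.9 CPM in aged and 358, 707 and 194 CPM in young capsules (-2.77 ± 0.47, edgeR adjusted p = 0.0627). Ucp1, Cox7a1 and Cox8b were all highest in young replicate 2 and higher in every young library than in any aged one. Coq8a, a kinase-like protein of coenzyme Q synthesis, followed the same order at 92.0, 119 and 184 CPM in aged and 918, 1840 and 410 CPM in young capsules (edgeR adjusted p = 0.0694).

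Of 19 general adipocyte genes, 0 passed in edgeR and 1 was called higher by DESeq2, with a median log2 fold change of -0.02. At an unadjusted p under 0.05, 1 was higher, against 10.9% of all genes. Adipoq, the gene of the fat cell hormone adiponectin, overlapped at 2454, 2958 and 2802 CPM in aged and 2314, 3512 and 2106 CPM in young capsules. Lep, the gene of leptin, was the 1 higher member, with 713, 248 and 268 CPM in aged and 115, 161 and 179 CPM in young capsules (1.43 ± 0.43, edgeR adjusted p = 0.117, and 0.77 without aged replicate 1).

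Mitochondrial genes were lower across pathways. Acss1, which makes acetyl-CoA from acetate inside mitochondria, had 45.4, 38.0 and 49.7 CPM in aged and 131, 189 and 137 CPM in young capsules, and fell by 1.78 on the log2 scale (SE 0.21, edgeR adjusted p = 0.0308). Esrrg, a nuclear receptor of oxidative metabolism, had 6.05, 8.08 and 7.08 CPM in aged and 22.6, 19.6 and 20.1 CPM in young capsules, and fell by 1.56 (SE 0.21, edgeR adjusted p = 0.0447). With any of aged replicates 1 and 3 and young replicates 1 and 3 left out, neither gene passed in edgeR. Of the lists, Acss1 was the only member to pass, among 23 citrate cycle genes of which 16 were lower at an unadjusted p under 0.05. Of 19 tested genes of mitochondrial fatty acid oxidation 15 were lower at an unadjusted p under 0.05, of 35 complex I subunits 33, of 14 complex IV subunits 11, and of 11 mitochondrially encoded genes 11, with 0 higher in any of these lists. The shares of all genes were 11.7% lower and 10.9% higher. In edgeR 0 members of these 4 lists passed, against 12, 29, 10 and 10 in DESeq2, all lower. Median log2 fold changes were -1.09 for the citrate cycle, -1.12 for fatty acid oxidation, -1.09 for complex I, -1.14 for complex IV and -1.37 for mitochondrially encoded genes. Ndufs6, a complex I subunit, had 22.2, 31.0 and 37.0 CPM in aged and 69.9, 98.4 and 80.6 CPM in young capsules (-1.47 ± 0.23, edgeR adjusted p = 0.0555). Cpt1b, which brings fatty acids into mitochondria of muscle and brown fat, had 38.9, 33.4 and 55.0 CPM in aged and 212, 506 and 83.7 CPM in young capsules (-2.66 ± 0.59, edgeR adjusted p = 0.0852, and -1.83 without young replicate 2).

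Other tissue markers differed between the same libraries. Complex I subunits summed to 2624, 3739 and 3828 CPM in aged and 5941, 9154 and 5199 CPM in young capsules, and young replicate 2, the highest, also held the highest brown and beige adipocyte sum. Mitochondrially encoded genes summed to 19002, 18811 and 16848 CPM in aged and 33414, 31682 and 62963 CPM in young capsules, and young replicate 3, the highest, also held the highest proximal tubule sum. Reads of nuclear copies of mitochondrial genes cannot be told apart here. The part of tubule and brown fat content in the mitochondrial differences was not tested. Of 24 tested Nrf2 target and antioxidant genes, 2 were higher and 9 lower at an unadjusted p under 0.05. This compares with 10.9% and 11.7% of all genes. Sod2, the superoxide dismutase of mitochondria, had 123, 180 and 184 CPM in aged and 292, 477 and 249 CPM in young capsules (log2 fold change -1.06 ± 0.30, edgeR adjusted p = 0.11), whereas Mt2, a metal-binding metallothionein, had 53.1, 58.3 and 62.9 CPM in aged and 26.1, 29.9 and 20.03 CPM in young capsules (1.20 ± 0.19, edgeR adjusted p = 0.0555).

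**Figure D5:**
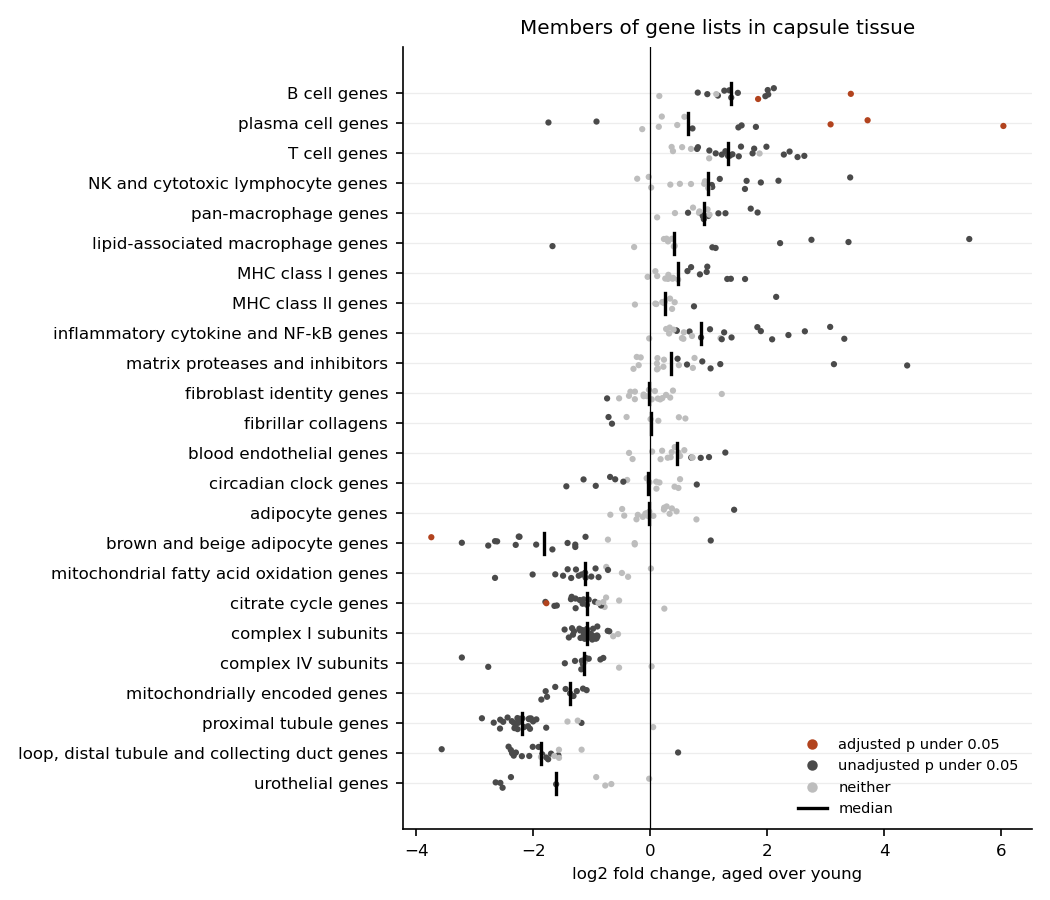
Log2 fold change, aged over young, of the tested members of 24 gene lists, with each dot a gene, a black bar at the median, red for an adjusted and dark grey for an unadjusted p under 0.05. B cell, T cell and NK lists lie right of 0 with medians of 0.99 to 1.38, and mitochondrial, brown fat and tubule lists lie left of 0.

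The other genes that fell were enzymes, carriers and regulators of several tissues. Car14, a membrane carbonic anhydrase, had 3.84, 2.90 and 8.68 CPM in aged and 37.5, 47.6 and 41.5 CPM in young capsules, and fell by 3.05 on the log2 scale (SE 0.40, edgeR adjusted p = 0.0447), or by 3.64 without aged replicate 3. Ces1g, a carboxylesterase that hydrolyses lipid esters, had 1.67, 1.18 and 2.46 CPM in aged and 12.8, 9.10 and 22.9 CPM in young capsules (-3.09 ± 0.44, edgeR adjusted p = 0.0462). Akr1c18, which inactivates progesterone, had 3.25, 4.71 and 4.43 CPM in aged and 17.9, 14.7 and 13.4 CPM in young capsules (-1.89 ± 0.25, edgeR adjusted p = 0.0446). Young libraries were 3 or more times the level of any aged library for Ces1g and for Car14. Slc19a1, the reduced folate carrier, had 22.6, 26.1 and 22.5 CPM in aged and 51.6, 51.7 and 57.4 CPM in young capsules (-1.17 ± 0.15, edgeR adjusted p = 0.0392). Pm20d1, a secreted enzyme that forms N-acyl amino acids, had 10.8, 11.3 and 15.7 CPM in aged and 37.7, 31.0 and 41.0 CPM in young capsules (-1.54 ± 0.21, edgeR adjusted p = 0.045). Esrp2, a splicing regulator of epithelia, had 2.96, 1.99 and 2.50 CPM in aged and 11.9, 8.09 and 13.4 CPM in young capsules (-2.16 ± 0.30, edgeR adjusted p = 0.045). Mapt, which encodes the microtubule-binding protein tau, had 26.2, 28.9 and 22.5 CPM in aged and 69.1, 71.4 and 67.5 CPM in young capsules (-1.42 ± 0.15, edgeR adjusted p = 0.0251). Plekhg6, Itih4, Itm2a and Pnkd were the other called genes, with log2 fold changes of -3.08, -2.52, -2.34 and -1.52. With aged replicate 1 or young replicate 1 left out, 0 of the 14 lower genes passed in edgeR, at adjusted p of 0.109 to 0.189 and 0.123 to 0.2. With aged replicate 3 left out 4 passed, and with young replicate 3 left out 1 did.

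Genes outside the B cell lineage also rose. Slc2a13, a myo-inositol transporter, had 38.1, 31.9 and 25.9 CPM in aged and 11.3, 12.6 and 11.5 CPM in young capsules (log2 fold change 1.44 ± 0.20, edgeR adjusted p = 0.045). Kif1a, a kinesin motor of axonal transport, had 10.8, 16.7 and 9.13 CPM in aged and 0.536, 1.47 and 1.61 CPM in young capsules (3.34 ± 0.45, edgeR adjusted p = 0.0448). The groups were apart for both genes, yet neither passed in edgeR with aged replicate 1, young replicate 1 or young replicate 3 left out. Slc2a13 and Kif1a also missed the threshold without aged replicate 3, and Slc2a13 without aged replicate 2.

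Markers of neighbouring tissue gave the following values. Of 29 proximal tubule genes, 0 passed in edgeR and 23 in DESeq2, with a median log2 fold change of -2.19. At an unadjusted p under 0.05, 26 were lower and 0 higher, against 11.7% and 10.9% of all genes. Slc34a1, which takes up phosphate in the proximal tubule, had 312, 129 and 492 CPM in aged and 1399, 557 and 2515 CPM in young capsules (-2.26 ± 0.64, edgeR adjusted p = 0.11, and -1.64 without young replicate 3). Lrp2, the endocytic receptor megalin, had 105, 55.9 and 163 CPM in aged and 610, 179 and 831 CPM in young capsules (-2.32 ± 0.59, edgeR adjusted p = 0.0971). Replicate 3 was the highest and replicate 2 the lowest of each group for both genes. Of 21 tested genes of later nephron segments, 15 were lower and 1 higher at an unadjusted p under 0.05. Umod, made in the thick ascending limb, overlapped at 38.6, 54.3 and 140 CPM in aged and 325, 116 and 342 CPM in young capsules. Of 9 tested urothelial genes, 5 were lower at an unadjusted p under 0.05, and Upk1a, a bladder and renal pelvis plaque protein, had 4.17, 4.55 and 3.17 CPM in aged and 10.8, 10.6 and 49.1 CPM in young capsules (edgeR adjusted p = 0.0907). Of 11 erythroid genes, 9 were lower at an unadjusted p under 0.05, while Alas2, of red cell haem synthesis, overlapped at 108, 165 and 283 CPM in aged and 257, 432 and 936 CPM in young capsules. Star, which delivers cholesterol for steroid synthesis in the adrenal cortex, had 1.77, 1715 and 3.65 CPM in aged and 5.66, 42.1 and 2.46 CPM in young capsules, so its positive log2 fold change of 5.10 rests on aged replicate 2 and is -2.64 without it. Whether the fall of Car14, Ces1g, Akr1c18 and Esrp2 moved with tubule content was not tested.

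By the unadjusted test more clock genes were lower than higher in aged capsules, without passing the adjusted threshold. Of 16 tested, 0 passed in edgeR, against 1 higher and 4 lower in DESeq2, and the median log2 fold change was -0.04. At an unadjusted p under 0.05, 1 was higher and 6 lower, against 10.9% and 11.7% of all genes. Hlf and Dbp, transcription factors of the clock output, were lower in every aged library. Hlf had 21.9, 13.5 and 26.7 CPM in aged and 58.4, 51.2 and 58.5 CPM in young capsules (-1.44 ± 0.25, edgeR adjusted p = 0.0643), and Dbp had 21.2, 23.8 and 31.6 CPM in aged and 57.0, 42.3 and 47.2 CPM in young capsules (-0.93 ± 0.20, edgeR adjusted p = 0.083). Per1, a repressor of the clock, had 41.9, 45.4 and 55.5 CPM in aged and 24.6, 35.4 and 22.4 CPM in young capsules (0.79 ± 0.22, edgeR adjusted p = 0.106). None of the 3 overlapped between the groups. The sources used here do not give the hour at which tissue was taken. Fos, an immediate early gene that responds to handling and dissociation, overlapped at 8.80, 5.39 and 21.5 CPM in aged and 5.66, 4.35 and 5.86 CPM in young capsules.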

How the data were processed

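RNA of whole renal capsules was sequenced in bulk, with single-end reads of 50 bases per the labels' protocols. These name a stranded mRNA kit (100 ng of RNA) and a kit for low input (2 ng) without assigning them to libraries. The authors deposited whole-number read counts per gene, not normalized; the aligner, the counter and any use of strand were not given in the sources used here. The submitters' processing notes name GRCm38. Without stated use of strand, overlapping and antisense genes cannot be told apart.

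Symbols and coordinates came from GENCODE M21, where 52489 of 52636 gene identifiers were found. Counts of the 6 capsule libraries were tested with edgeR 4.0.16 (R 4.3.3; filterByExpr, TMM, quasi-likelihood F test, 2-sided) with p-values adjusted by Benjamini and Hochberg's method over every gene tested, at a threshold of 0.05. Alternatives used limma 3.58.1 (voom), DESeq2 1.42.0, other scalings and filters, thinned counts, a replicate block and left-out libraries. The edgeR fit with and without the replicate block, voom and DESeq2 were tested on simulated counts of preset spread. The other settings were not. Each gene level is CPM over the TMM-scaled total of the genes tested, and each list sum is CPM of the unscaled total of all genes; ± is the standard error of a log2 fold change.

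Members and lists were chosen with earlier results of these data known. Of 1543 list entries, 3 were not found. Named genes were every gene called, the 10 largest fold changes each way among genes past the threshold with the replicate block, at a mean log2 CPM of at least 3 and without overlap, for each list described up to 4 members with the smallest p, and 25 preset genes. Genes printed from these were picked after their values were seen, and 1 called gene is not reported here. Coding sequences came from GENCODE M21 transcripts.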

Additional observations from a re-analysis of the deposited data

How the results depend on the processing

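The count of 39 genes moved under several settings. It was 1095 (403 higher, 692 lower) of 25123 genes without a filter on low counts, 24 with a stricter filter, 1876 with DESeq2, 25 with limma-voom and 487 without replicate 2 of both groups, and 0 to 387 when a library was left out. It stayed within 1.5 times of 39 under the other scalings, thinned counts and the robust fit, at 43 to 52. Of the 39, all passed under each of these settings except the stricter filter (24 of the 38 tested), limma-voom (24) and left-out libraries (0 to 39). The cause was not tested. Scaling without immunoglobulin, mitochondrial and haemoglobin genes left 56.9% of calls higher, against 64.1%.

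Replicate numbers were taken as names, since the labels tie them to no animal or batch and 1 of 3 pairs fell just short of the correlation of 0.1 asked for. Over all 16350 genes, same-numbered libraries deviated from their group means with r = 0.0986, 0.353 and 0.310, and libraries of unequal number with -0.306 to 0.0382, so each library correlated best with its own number, a hint from the data and not from the design. Over the 10633 genes at a mean log2 CPM of at least 3, same-numbered libraries gave r = 0.215, 0.543 and 0.509. With the replicate block 2196 of 16350 genes passed, 943 higher and 1253 lower, including all 39. Among them were 31 of 35 complex I subunits and 28 of 29 proximal tubule genes, all lower, and 12 of 16 pan-macrophage, 13 of 25 inflammatory cytokine and NF-kB, 14 of 25 T cell and 11 of 15 B cell genes, all higher, and 0 fibroblast identity genes and fibrillar collagens.

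Direction changed for genes of small difference or of the adrenal. Leaving out single libraries, the log2 fold change of Msln ranged from -0.68 to 0.13 (0.05 and 0.03 without aged replicates 1 and 2), that of Pdgfra from -0.23 to 0.28 (-0.11 without aged replicate 1), that of Adipoq from -0.0722 to 0.28 (-0.0076 and -0.0348 without aged replicate 2 and young replicate 1), that of Npy from -0.0782 to 3.41, that of Star from -2.64 to 7.14 and that of Akr1b7 from -6.51 to 7.37. Without both replicates 2, Pdgfra was at -0.0823, Lyve1 at -0.0134, Star at -0.59 and Akr1b7 at -4.51. Pdgfra was at -0.00904 with the scaling above, and Dbh and Akr1b7 were at -0.37 and -0.87 by limma-voom. Other values of named genes kept their direction. Young totals of 20.6 to 22.2 M limit genes near 0 counts.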
